A study of Mus musculus with 18 samples.

Results

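Differentiating progenitors (DP) were compared with proliferating progenitors (PP) of the mouse lateral cortex at embryonic day 14.5. Membership was taken from the sample labels: the 3 PP and the 3 DP libraries, 6 of the 9 libraries of the series, were set against each other, and the 3 libraries of sorted neurons (Neuron) served only to give a level beyond them. All embryos were C57BL/6 and all carried the same pair of reporters, written Btg2GFP/Tubb3GFP in the genotype label, so there was no group without reporters. PP are labelled Btg2 negative and titled RFPminus, DP are titled RFPplus, and neurons are titled GFPplus. The genotype label and the titles thus name different colours for the Btg2 reporter, and the groups follow the titles. Each library came from a pool of more than 3 embryos of different litters, the meninges and ganglionic eminences having been removed before dissociation, so the spread between libraries is that between pools. A fraction sorted on a reporter holds every cell that is lit or unlit by it: the PP fraction is defined by the lack of a red signal and can hold any unlit cell of the tissue.

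Neural progenitors of the ventricular zone, the radial glia, line the cortical ventricle, divide repeatedly and span the wall with a long process. They give rise to intermediate progenitors, which leave the apical surface, divide a last time away from it and form neurons. Btg2 encodes an antiproliferative cofactor that comes on in progenitors at the division that makes neurons, and proneural bHLH factors, Notch signalling through Hes genes, and inhibitors of G1 cyclin kinases set when this step is taken. DP and PP differ by the Btg2 reporter, and neither fraction is free of Btg2 RNA or of other cells, as the values below show.

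The 6 libraries held 34337209 to 50535080 counts on genes, and mitochondrial genes took 1.14% to 1.29% of them. Principal components were taken only over the features picked for varying most among these 6 libraries. Within that set the first component carried 90.4% of the variance and separated PP from DP, and the next carried 5.03%. Levels are given in CPM, that is, counts brought to a common library size. They are listed for the PP libraries L222, L355 and L393 and then for the DP libraries L223, L356 and L394. Fold changes are log2 values of DP over PP from edgeR's quasi-likelihood fit with their standard error, and a gene rose or fell when its Benjamini-Hochberg adjusted p was under 0.05.

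The marker lists followed the labels, but they were chosen with earlier results of these data known. The intermediate progenitor list also holds Btg2, the gene of the sorting reporter. These counts therefore do not test what the fractions are. Summed over 17 radial glia markers, the level was 9266, 9380 and 8191 CPM in PP and 5200, 3654 and 3549 CPM in DP. Over 20 intermediate progenitor markers the sum was 2722, 2621 and 2564 CPM in PP and 6596, 8449 and 8550 CPM in DP. All 20 rose, while 16 of the 17 radial glia markers fell. Of all annotated genes tested, 21.1% rose and 20.2% fell. Neither group was free of the other's markers, and DP library L223 held more radial glia and fewer intermediate progenitor transcripts than L356 and L394. Neuronal markers were also higher in DP: 18 of them summed to 484 to 758 CPM in PP, 2880 to 3903 CPM in DP and 13950 to 14750 CPM in Neuron, and 17 rose. In bulk RNA, fewer cells of a type and less RNA per cell cannot be told apart.

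Markers of several other cell types differed between PP and DP. Their counts of falls are read against 20.2%, the share of all annotated genes tested that fell. Red blood cell transcripts, globins above all, summed to 15360, 8374 and 8805 CPM in PP and 126, 19.1 and 21.9 CPM in DP, with 11 of 13 genes lower, and at most 1 of them at 0 in any of these libraries. Meningeal fibroblast markers summed to 22.2, 40.1 and 126 CPM in PP and 5.83 to 13.4 CPM in DP. Of 7 tested, 5 fell (8 to 9 of 11 listed when L222, L223, L394 or the Neuron library L395 was left out). The list also held 1 rise, by at least 2-fold, and no rise was called without L355. All 8 pericyte markers tested fell. Endothelial markers reached 37.6 CPM in PP library L393 and lay between 12.1 and 18.1 CPM in the other PP and DP libraries, and 7 of 11 fell, with 3 falls called without L393 and 4 without L356. Of 12 microglia markers 3 fell, and of 5 oligodendrocyte precursor markers 1 fell (2 falls without L223, and 2 rises without L222). In both lists the share of falls was near that over all genes. The part of these other cell types in the results was not tested, and their values stand beside genes that moved with them. Scaling without the red blood cell genes kept 7488 of 7495 calls. That setting changes the library scaling alone and leaves RNA of these other cells in each gene's counts.

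**Figure D1:**
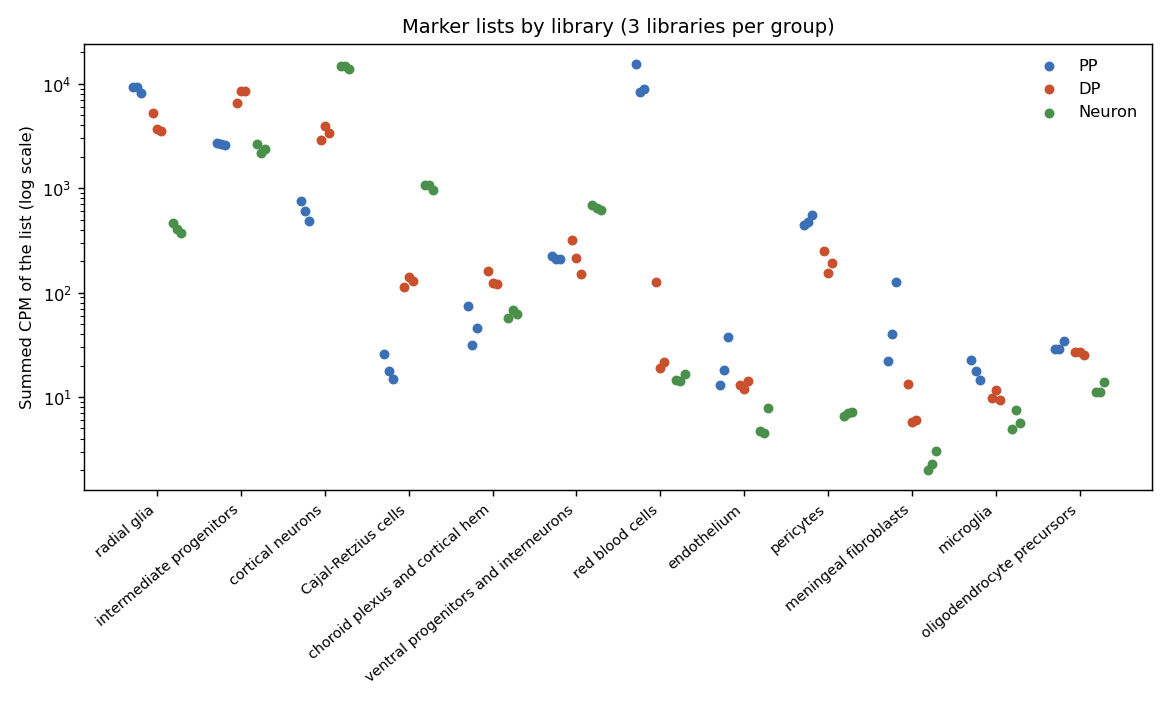
Summed CPM of 12 marker lists (log axis) in each of the 9 libraries, 3 per group. Intermediate progenitor markers were highest in DP, at 6596 to 8550 CPM, and red blood cell markers in PP, at 8374 to 15360 CPM.

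Of 18143 annotated genes tested, 3827 were higher in DP (21.1%) and 3668 lower (20.2%). At least 2-fold changes were called upward in 1284 genes (7.08%) and downward in 1132 (6.24%), and the median log2 change over all annotated genes was -0.02. At the next size classes rises outnumbered falls: 552 genes rose and 242 fell at least 4-fold, and 213 rose and 76 fell at least 8-fold. At 32-fold the counts were 11 and 17. All 3 DP libraries lay above all 3 PP libraries for 24.9% of annotated genes and below them for 24.7%. The libraries form sets of adjacent numbers (L222 to L224, L355 to L357 and L393 to L395), and a fit with this set as a replicate block is given where it changes a call or moves a count by more than 1.5 times. The counts of the lists that follow are read against 21.1% and 20.2%, the shares of all annotated genes tested that rose and fell.

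**Figure D2:**
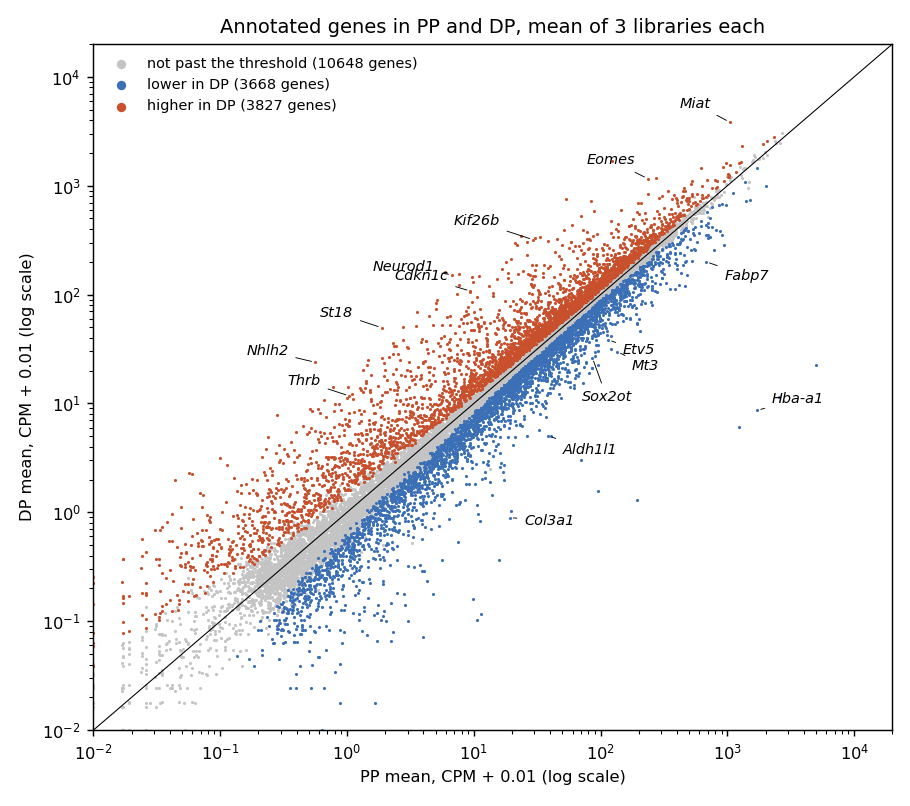
Mean CPM in DP against mean CPM in PP, plus 0.01, on log axes; each point is an annotated gene, the line marks equality, and colours mark the 3827 genes higher and 3668 lower in DP. The named genes span rises such as Nhlh2 and Eomes, and falls such as Mt3, Etv5 and the globin Hba-a1.

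Among genes of at least 100 CPM in the higher group, 5 of the 12 largest rises, Slc17a6, Rbfox3, Neurod6, Tbr1 and Dcx, were of genes in the cortical neuron list. Slc17a6 was measured at 9.10, 5.02 and 3.62 CPM in PP and 123, 190.4 and 171 CPM in DP; this vesicular glutamate transporter loads synaptic vesicles. Rbfox3 stood at 10.04, 7.35 and 5.403 CPM in PP and 121, 165 and 178 CPM in DP; the gene encodes the splicing factor recognised as NeuN. Kif21b had 186, 104 and 76.8 CPM in PP and 1454, 1948 and 1657 CPM in DP; it encodes a kinesin of axons and dendrites. In these 3 genes every DP library stood far above every PP library, with log2 changes of 4.79 ± 0.30, 4.36 ± 0.21 and 3.78 ± 0.28 (SE). The other 9 of the 12 were Neurod1, Nhlh1, Neurod6 and Tbr1 (transcription factors of the neuronal lineage), the guidance receptor Plxna4, the microtubule protein Dcx, the adhesion molecule L1cam, the neurite-promoting Nrn1 and the non-coding A930011O12Rik, with log2 changes from 3.74 (Nrn1) to 4.51 (Neurod1). In PP the level of these genes was highest in library L222 throughout, Plxna4 for example standing at 39.5 CPM there and at 15.1 and 8.59 CPM in the other PP libraries.

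Among genes of at least 100 CPM in PP, globins fell the most (Hbb-b2 had a log2 change of -7.82), and red blood cell genes were left out of the ranking that follows. Slc1a3, Fabp7 and Ddah1 among the 12 largest falls stand in the radial glia list. Mt3 was at 161.0, 146 and 99.3 CPM in PP and 41.1, 27.6 and 20.9 CPM in DP; Mt3 encodes a brain metallothionein. Ednrb was measured at 214, 213 and 188 CPM in PP and 63.9, 39.6 and 35.4 CPM in DP; Ednrb is an endothelin receptor. Ntrk2 stood at 222.2, 191 and 171 CPM in PP and 62.3, 52.1 and 44.8 CPM in DP; the gene encodes the BDNF receptor TrkB, and its Neuron level of 131 ± 7.64 CPM lay between those of DP and PP. The remaining 9 were the arginine metabolism enzyme Ddah1, the transcription factors Sox8 and Sall3, the glutamate transporter Slc1a3, the fatty acid carrier Fabp7, the growth factor binding Igfbp5, the acetyl-CoA synthetase Acss1, the adaptor Pea15a and the growth factor Ptn. Their log2 changes lay between -1.96 (Ddah1) and -1.66 (Ptn), so these 12 falls were smaller in size than the 12 largest rises, which the globin falls were not.

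The genes behind the sort and the markers of the step were higher in DP. Btg2 lies on the minus strand at chr1:135971747-135975697 (mm9). Btg2 had 409, 403 and 523 CPM in PP and 658, 850.2 and 1156 CPM in DP, a log2 change of 1.00 ± 0.18 (adjusted p = 0.00106). Btg2 RNA was thus present in the Btg2-negative fraction, in which it lay above the Neuron level of 169 ± 22.2 CPM, and the PP and DP libraries did not overlap. Eomes lies on the plus strand at chr9:118387330-118395250 (mm9). Eomes was at 287, 232 and 186 CPM in PP and 950.0, 1294 and 1242 CPM in DP (2.31 ± 0.25, adjusted p = 2.31e-05); Eomes encodes Tbr2, the T-box factor that defines intermediate progenitors, and its Neuron level was 81.8 ± 30.7 CPM. Neurog2 lies on the plus strand at chr3:127336054-127338549 (mm9). Neurog2 was measured at 364, 403 and 336.2 CPM in PP and 597, 865 and 806 CPM in DP (1.04 ± 0.12, adjusted p = 4.97e-05); Neurog2 is the main proneural factor of the dorsal cortex. Tubb3 stood at 119.7, 82.4 and 61.4 CPM in PP and 533, 694 and 515 CPM in DP, against 2384 ± 261 CPM in Neuron, so the neuronal tubulin rose in DP (2.73 ± 0.22) while its level stayed below that of neurons. Of the 5 Btg and Tob family members tested, antiproliferative relatives that bind the mRNA deadenylation complex, Btg2 alone passed the test, and with the replicate block Btg1 also fell (log2 -0.14, adjusted p = 0.0424). Its relative Tob1 stood at 81.2 to 96.0 CPM in PP and 79.6 to 92.7 CPM in DP.

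**Figure D3:**
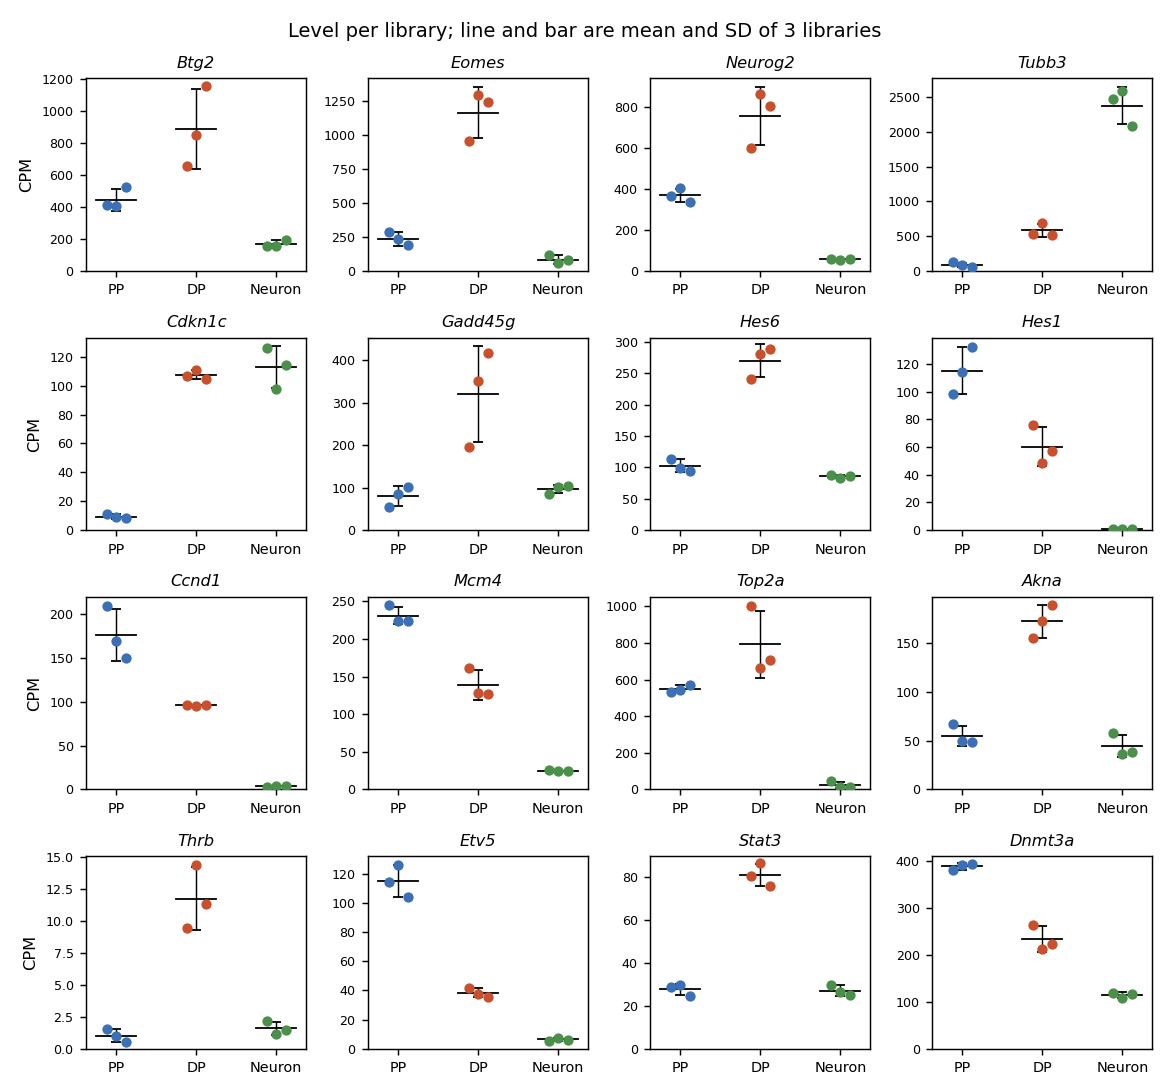
CPM of 16 genes in each library of PP, DP and Neuron, with the mean and SD of 3 libraries; every axis starts at 0. Btg2, Eomes, Neurog2, Hes6, Akna, Thrb and Stat3 were highest in DP, and Cdkn1c stood at 105 to 111 CPM in DP and 113 ± 14.3 CPM in Neuron. Top2a had 535 to 570.1 CPM in PP and 665 to 1000 CPM in DP.

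Neuronal bHLH factors were higher in DP, the later ones of the cascade by the larger steps. Of 18 tested, 11 rose and 2 fell, with a median log2 change of 0.93. The initiating factors Neurog2 and Neurog1 rose by 1.04 and 1.49. Factors downstream of the neurogenins changed most. Neurod1 had 10.1, 6.17 and 3.92 CPM in PP and 121.9, 182 and 151.5 CPM in DP (4.51 ± 0.28, adjusted p = 5.02e-07). Neurod4 was at 2.98, 2.22 and 1.69 CPM in PP and 27.3, 43.9 and 36.8 CPM in DP (3.99 ± 0.29), and its Neuron level was 0.722 ± 0.435 CPM, so Neurod4 was high in DP and low on either side. Nhlh1 was measured at 11.4, 6.64 and 4.62 CPM in PP and 105, 138 and 126 CPM in DP (4.04 ± 0.26). Nhlh2 stood at 0.725, 0.470 and 0.452 CPM in PP and 20.6, 27.2 and 23.9 CPM in DP (5.47 ± 0.17, adjusted p = 1.39e-08), the largest log2 rise of the list. Nhlh2 also stands in the Cajal-Retzius list, whose 10 members summed to 14.9 to 25.6 CPM in PP and 113 to 140 CPM in DP; the part of these early-born neurons was not tested. Neurod6 rose by 3.87. The ubiquitous partners of these factors changed little or not beyond the threshold: Tcf4 rose by 0.55, Tcf12 by 0.39, and Tcf3 stood at 398 to 429.5 CPM in PP and 389.5 to 459 CPM in DP. Bhlhe40 and Atoh8, the members that fell, are a transcriptional repressor (-0.81) and an atonal relative (-0.97).

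Hes, Hey and Id genes, which encode repressors of proneural factors, split. Of 14 tested, 5 rose and 7 fell (median log2 -0.49). Hes1 had 98.5, 114 and 132 CPM in PP and 75.6, 48.3 and 56.8 CPM in DP (-0.93 ± 0.15); Hes1 is the Notch target that keeps radial glia dividing. Id4 was at 448, 463 and 509.8 CPM in PP and 261, 152.4 and 189.7 CPM in DP (-1.24 ± 0.17); Id proteins bind the bHLH partners and keep them from DNA. Hes6 was measured at 114, 99.0 and 94.0 CPM in PP and 240.5, 281 and 289 CPM in DP (1.401 ± 0.09, adjusted p = 6.1e-07); Hes6 antagonises Hes1, and its Neuron level was 85.8 ± 2.33 CPM. The repressors Hes1, Id1 (-0.70) and Id4 thus fell and the antagonist Hes6 rose. Hes5, another Notch target, did not pass the test (adjusted p = 0.158), with 364, 222.6 and 188 CPM in PP and 274, 123 and 124 CPM in DP. With the library set as a replicate block Hes5 fell (log2 -0.62 ± 0.10, adjusted p = 0.000738), being lower in DP in each of the 3 sets. In both groups Hes5 was highest in the library of the set L222 to L224. Hey2 and Id3 rose by 0.74 and 0.82, and Hey2 lost its call without that set (adjusted p = 0.0964).

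Promoters of the sorting genes and of leading members of the bHLH, Hes, zinc finger and G1 lists were read for E-box and Rbpj motifs. The sequences are RefSeq's, of build GRCm38.p6, the 250 bases before the gene's start, 5′ to 3′ on the gene's strand, and are shown for 4 genes that rose and hold such a motif. Of the 18 promoters read, 7 held one, 6 of genes that rose and 1 of a gene that fell. The other 3 were Myt1l and Plagl1 (CAGATG), of which Plagl1 fell, and Hey2 (GTGGGAA). The 11 without one, 7 of genes that rose and 4 of genes that fell, included Btg2, Eomes, Neurog2, Tubb3 and Neurod1. Capitals mark CAGATG, the E-box of Neurog and Neurod factors, in Nhlh1 and Nhlh2, GTGGGAA, the Rbpj motif, in Nhlh2, and CAGCTG, another E-box, in Hes6 and Gadd45g.
Nhlh1, chr1:172057597-172057846, minus strand: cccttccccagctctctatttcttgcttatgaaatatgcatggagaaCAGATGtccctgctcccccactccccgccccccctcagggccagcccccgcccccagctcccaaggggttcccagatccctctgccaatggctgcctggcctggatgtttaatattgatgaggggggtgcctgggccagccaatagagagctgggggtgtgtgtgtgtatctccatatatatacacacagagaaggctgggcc
Nhlh2, chr3:102009895-102010144, plus strand: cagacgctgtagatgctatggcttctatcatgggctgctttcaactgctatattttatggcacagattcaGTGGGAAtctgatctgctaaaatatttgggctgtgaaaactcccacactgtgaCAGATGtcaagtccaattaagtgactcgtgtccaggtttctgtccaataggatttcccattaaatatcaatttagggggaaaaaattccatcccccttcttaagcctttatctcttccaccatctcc
Hes6, chr1:91414039-91414288, minus strand: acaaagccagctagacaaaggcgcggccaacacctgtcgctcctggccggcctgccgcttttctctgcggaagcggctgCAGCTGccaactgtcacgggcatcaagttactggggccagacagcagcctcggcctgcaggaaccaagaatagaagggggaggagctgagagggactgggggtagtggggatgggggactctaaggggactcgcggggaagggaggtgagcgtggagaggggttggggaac
Gadd45g, chr13:51846425-51846674, plus strand: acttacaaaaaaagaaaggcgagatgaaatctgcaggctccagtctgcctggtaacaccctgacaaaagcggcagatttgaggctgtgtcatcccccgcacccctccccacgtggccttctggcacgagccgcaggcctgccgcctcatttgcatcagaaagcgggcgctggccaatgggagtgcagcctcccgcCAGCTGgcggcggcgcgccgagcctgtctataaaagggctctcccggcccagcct
Counted from the first base of the start, the capitals begin at -203 in Nhlh1, -127 (CAGATG) and -180 (GTGGGAA) in Nhlh2, -171 in Hes6 and -55 in Gadd45g. Over both strands of the 300-base promoters of 10215 matched genes, of 14718 protein-coding genes tested, CAGCTG was in 15.3%, in 24.5% of the 754 promoters of genes at least 2-fold higher and in 18.6% of the 624 of genes at least 2-fold lower. CAGATG was in 11.6% of all, 15.3% of the higher and 15.4% of the lower group, so it did not separate them. GTGGGAA was in 6.4%, 4.8% and 7.7% in the same order, TCACACC (T-box) in 3.2%, 2.3% and 3.4%, GGCGGGAA (E2F) in 4.0%, 2.4% and 3.2%, and CCAAT (NF-Y) in 38.8%, 33.8% and 33.7%. Median GC content was 61.0%, 62.3% and 59.7%. These shares describe letters in a window, with no test.

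Sox factors also went both ways. Of 15 tested, 3 rose and 7 fell (median log2 -0.67), the risers being the SoxC genes Sox4 and Sox11, activators of neuronal genes, and Sox5, a factor of deep-layer neurons. Sox11 stood at 206, 200.4 and 170.5 CPM in PP and 539, 679 and 512 CPM in DP (1.58 ± 0.12). Sox4 had 696, 597 and 563 CPM in PP and 1358, 1530 and 1464 CPM in DP (1.23 ± 0.09). The third SoxC member, Sox12, fell instead (-0.32, 251.3, 234 and 241 CPM in PP and 215, 186 and 182 CPM in DP), while its Neuron level of 407 ± 7.79 CPM was the highest of the 3 groups. Progenitor factors of the SoxB and SoxE groups fell, with log2 changes of -0.67 for Sox2, -1.01 for Sox3, -0.96 for Sox9 and -1.23 for Sox21. Sox21 was at 288, 284 and 313.9 CPM in PP and 154.6, 106.9 and 117 CPM in DP. Sox8 had the lowest log2 change of the list (-1.92 ± 0.47, adjusted p = 0.00707), and Sox6 did not pass the test (-0.05).

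Zinc finger factors tied to neurogenesis and delamination rose in 11 of 22 members tested and fell in 4 (median log2 0.33). St18 was measured at 1.96, 1.84 and 1.79 CPM in PP and 44.5, 55.6 and 48.9 CPM in DP (4.74 ± 0.15) and Myt1 stood at 65.9, 47.8 and 40.9 CPM in PP and 322, 433 and 409 CPM in DP (2.91 ± 0.18); St18, Myt1 and Myt1l are related zinc finger factors of neuronal differentiation, and Myt1l rose by 3.39. Scrt2 had 39.2, 23.6 and 15.8 CPM in PP and 249, 365 and 296 CPM in DP (3.54 ± 0.27); Scratch factors belong to the Snail family and act in the detachment of newborn neurons. Insm1 was at 134.6, 153 and 121 CPM in PP and 283, 383 and 344 CPM in DP (1.31 ± 0.12); Insm1 promotes the delamination of intermediate progenitors. The Snail genes Snai1 and Snai2 were at most 0.616 CPM in the 6 libraries and did not pass the test. The REST complex, which silences neuronal genes outside neurons, split by subunit. Rest was measured at 116, 141 and 149 CPM in PP and 84.2, 61.9 and 77.8 CPM in DP (-0.86 ± 0.13). Rcor2 stood at 227, 192.2 and 206 CPM in PP and 579, 714 and 768 CPM in DP (1.72); Rcor2 is a corepressor of REST, and its relative Rcor1 did not pass the test (0.14), though it rose with the replicate block (adjusted p = 0.0269). Rest fell, Rcor2 rose, and Rcor3, a further relative, fell (log2 -0.31). Plagl1, an imprinted zinc finger gene that slows cell growth, fell (789, 819.6 and 831 CPM in PP and 461, 324 and 396 CPM in DP, -1.05 ± 0.11). Leaving out PP library L355 or L393 or DP library L356 left 2 falls in the list, of 4, and Rcor3 was among those lost.

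In the cell cycle, the inhibitors Cdkn1a, Cdkn1b and Cdkn1c rose, Ccnd1, Ccnd3 and the helicase genes Mcm2 to Mcm7 fell, and 28 of 33 mitosis genes did not pass the test. Among 33 G1 genes tested, 11 rose and 11 fell (median log2 -0.09). The list also holds inhibitor genes of the Cdkn2 family, which are not reported here. Cdkn1c lies on the minus strand at chr7:150644255-150646955 (mm9). Cdkn1c had 11.2, 8.76 and 8.24 CPM in PP and 106.7, 111 and 105 CPM in DP (3.52 ± 0.13, adjusted p = 2.26e-08); Cdkn1c encodes p57, an inhibitor of G1 cyclin kinases, and the Neuron level was 113 ± 14.3 CPM. The DP libraries agreed closely with one another and stood about as high as neurons. Cdkn1a was at 2.77, 2.58 and 3.43 CPM in PP and 6.85, 6.72 and 6.61 CPM in DP (1.198) and Cdkn1b was measured at 242, 249 and 229.6 CPM in PP and 297, 321 and 308 CPM in DP (0.36); these inhibitors, p21 and p27, rose less. Gadd45g stood at 55.0 to 103 CPM in PP and 196 to 416 CPM in DP (1.99 ± 0.26); Gadd45 proteins are stress sensors that restrain the mitotic kinase, and its relatives Gadd45a (1.499) and Gadd45b (0.96) rose too. The retinoblastoma gene Rb1 rose by 0.78 and Ccng2, an atypical cyclin linked to arrest, by 1.11.

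The cyclins Ccnd1 and Ccnd3 and their kinase Cdk6, which drive G1, fell. Ccnd1 stood at 209, 168.4 and 150.1 CPM in PP and 95.8, 94.99 and 96.4 CPM in DP (-0.88 ± 0.11). Ccnd3 had 66.3, 68.6 and 64.2 CPM in PP and 45.5, 36.3 and 33.5 CPM in DP (-0.79 ± 0.11). Cdk6 was at 99.7, 123 and 90.4 CPM in PP and 63.3, 76.8 and 54.2 CPM in DP (-0.69 ± 0.16). Ccnd2, a D cyclin transported to the basal end of radial glia, did not pass the test (adjusted p = 0.133), with 1602, 1502 and 1315 CPM in PP and 1355, 1016 and 851 CPM in DP. With the replicate block Ccnd2 fell (log2 -0.49 ± 0.11, adjusted p = 0.00613), being lower in DP in each library set. Cdk4, the partner of D cyclins beside Cdk6, rose instead (451, 407 and 411 CPM in PP and 512, 540.0 and 528 CPM in DP, 0.32). Of the E2F genes, E2f1 rose by 0.25, and E2f4, E2f5 and E2f6 fell (log2 -0.19, -0.58 and -0.19). Without DP library L356, or with the paired-end run alone, 7 falls of the G1 list were called.

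Licensing of replication origins, which happens in G1 and loads the Mcm helicase, had 11 of 22 genes lower and 1 higher (median log2 -0.24), with 2 higher without L223 or with the replicate block. Mcm4 was measured at 245, 225 and 224.3 CPM in PP and 161.3, 128 and 127 CPM in DP (-0.74 ± 0.09). Cdt1 stood at 114, 114 and 129.5 CPM in PP and 81.9, 62.5 and 71.7 CPM in DP (-0.73 ± 0.12); Cdt1 and Cdc6 bring the helicase to the origin. Orc1 had 16.4, 14.9 and 18.1 CPM in PP and 11.2, 6.72 and 9.89 CPM in DP (-0.83 ± 0.18); Orc1 is a subunit of the origin recognition complex. The helicase subunits Mcm2 to Mcm7 all fell, with log2 changes from -0.20 (Mcm7) to -0.85 (Mcm3), whereas the origin subunits Orc2 to Orc5 did not pass the test (Orc4 rose with the block, adjusted p = 0.0184). Of the 10 members not called, 9 had a 95% interval within a 1.5-fold change in either direction. Dbf4, the regulator of the Cdc7 kinase that fires origins, rose by 0.32 and lost its call without PP library L222 (adjusted p = 0.0524) or L355 (adjusted p = 0.0569). Mcm3 lost its call with DESeq2 (adjusted p = 0.0948) and without DP library L356 (adjusted p = 0.0552), and without L356 the list held 6 falls.

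Of 33 mitosis and cytokinesis genes 5 rose and none fell in edgeR's test, with a median log2 change of 0.29. At an unadjusted p under 0.05 0 fell, and 0 fell by DESeq2 or limma, while 1 fell without L223. Mki67 was at 1155, 1026 and 1031 CPM in PP and 1517, 1003 and 1073 CPM in DP (adjusted p = 0.757). Top2a was measured at 535, 543 and 570.1 CPM in PP and 1000, 665 and 709 CPM in DP (adjusted p = 0.276); both are proliferation genes of S phase to mitosis. Cdk1 stood at 71.1, 78.8 and 85.6 CPM in PP and 113, 84.8 and 89.3 CPM in DP (adjusted p = 0.357); Cdk1 is the mitotic kinase. In each of these genes DP library L223 was the highest of the 6. G2e3 had 134, 154.7 and 158 CPM in PP and 213, 210.2 and 232 CPM in DP (0.55 ± 0.07); G2e3 encodes a ubiquitin ligase of G2 and M phase. Kif20b was at 54.0, 53.1 and 62.7 CPM in PP and 87.4, 66.5 and 84.0 CPM in DP (0.48 ± 0.11); it encodes a kinesin needed for cytokinesis in cortical progenitors. The estimates were wide: of 28 members not called, 6 had an interval within 1.5-fold. The count of rises moved with the libraries used, from 2 without any of libraries L222, L355, L223 or L394 to 14 when the Neuron libraries or their L224 were left out of the fit, and Aurka and Hmmr, which rose by 0.53 and 0.59, were among the calls lost. These are a spindle kinase and a spindle protein. All DP libraries lay above all PP libraries in 14 of the 33 members, against 24.9% of all annotated genes.

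**Figure D4:**
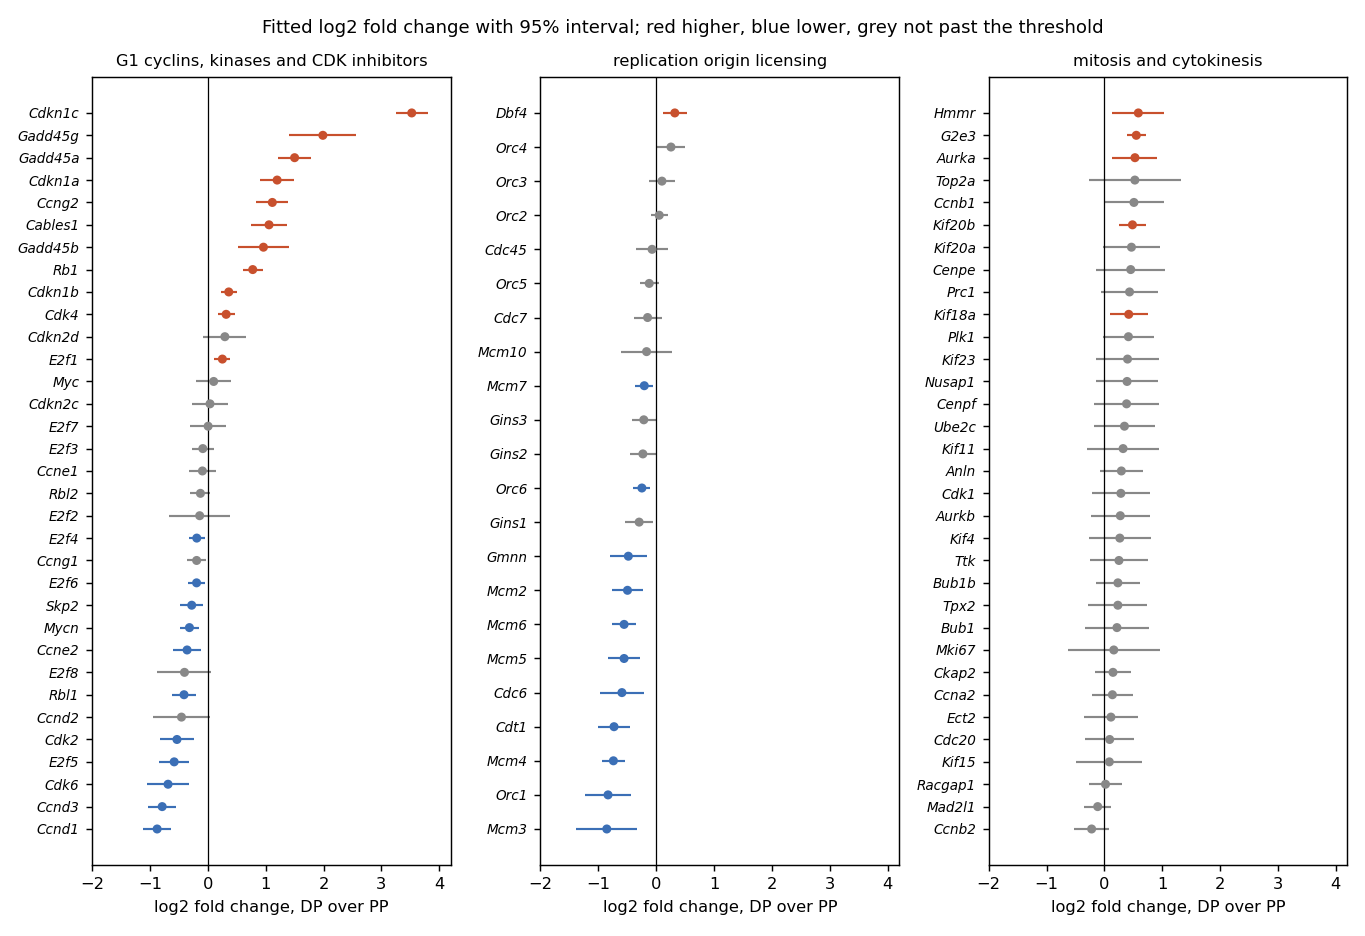
Fitted log2 fold change (DP over PP) with its 95% interval for each member tested of the G1, origin licensing and mitosis lists; red rose, blue fell and grey did not pass the test. The inhibitors Cdkn1a, Cdkn1b and Cdkn1c lie to the right, up to 3.52 for Cdkn1c. The 11 licensing genes that fell lie to the left, down to -0.85 for Mcm3, and 28 of 33 mitosis genes are grey.

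Of 23 centrosome and microcephaly genes 4 rose and 1 fell (median log2 0.14). Akna was measured at 66.9, 49.2 and 48.5 CPM in PP and 154.6, 172.5 and 188 CPM in DP (1.65 ± 0.17); Akna anchors microtubules at the centrosome of delaminating cells, and its Neuron level was 44.4 ± 11.6 CPM. Cep120 stood at 49.99, 46.0 and 49.8 CPM in PP and 83.6, 95.1 and 90.5 CPM in DP (0.88 ± 0.08); Cep120 and Cenpj, which rose by 0.77, are needed to build centrioles. The spindle-pole gene Aspm stood at 171.6 to 205 CPM in PP and 212 to 318 CPM in DP (adjusted p = 0.195). Nin, whose ninein protein marks mature centrioles, fell (53.5, 54.4 and 47.7 CPM in PP and 50.8, 29.6 and 29.8 CPM in DP, -0.50), and lay at 323 ± 29.8 CPM in Neuron. When any one of the libraries L222, L355, L393, L356, L394, L357 or L395 was left out, no fall was called in this list, and without L223 7 rises and 2 falls were called. With the replicate block 7 rose and 3 fell. Of 29 primary cilium genes 3 rose and 7 fell (median log2 -0.04), and 18 of the 19 not called had intervals within 1.5-fold. Regulatory factors of cilia went both ways, Rfx3 rising (72.7, 81.7 and 76.8 CPM in PP and 104, 122.5 and 115 CPM in DP, 0.56) and Rfx2 and Rfx4 falling (-0.72 and -0.53), and Tctn2 of the ciliary gate fell (23.6, 23.9 and 23.5 CPM in PP and 16.4, 15.5 and 16.1 CPM in DP). The motor gene Kif3b and the ciliary membrane gene Arl13b rose by 0.40 and 0.27. Without L393 or L356, 4 falls were called, and without L223 5 rises, or 6 with the replicate block.

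Apical junction and polarity genes also went both ways, 13 of 40 rising and 10 falling (median log2 0.05), and relatives parted. Crb2 had 179.6, 206 and 225 CPM in PP and 121, 77.8 and 106 CPM in DP (-1.01 ± 0.14). Crb1 was at 6.68, 6.09 and 6.84 CPM in PP and 11.98, 14.4 and 13.4 CPM in DP (1.02 ± 0.12); Crumbs proteins organise the apical membrane. Pard6b was measured at 30.2, 33.4 and 32.3 CPM in PP and 18.7, 15.6 and 15.2 CPM in DP (-0.96), while Pard3, which encodes its partner in the Par complex, rose (101, 101 and 100.3 CPM in PP and 182, 179.8 and 170.5 CPM in DP, 0.82 ± 0.07). Numbl stood at 73.2, 65.4 and 57.1 CPM in PP and 153, 188 and 169 CPM in DP (1.38 ± 0.11); Numbl inhibits Notch and maintains adherens junctions, and its relative Numb did not pass the test (0.09). Ctnna2 had 26.2, 20.8 and 16.97 CPM in PP and 45.7, 57.00 and 41.8 CPM in DP (1.18); this alpha-catenin of neurons rose, and the epithelial Ctnna1 did not pass the test (-0.25) but fell with the replicate block (adjusted p = 0.00488). Ctnnd2, a delta-catenin of neurons, fell (214, 221 and 189.6 CPM in PP and 129, 119.7 and 102 CPM in DP, -0.83) and stood at 296 ± 16.2 CPM in Neuron. The junction cadherin Cdh2 fell (log2 -0.42), and beta-catenin, Ctnnb1, did not pass the test (-0.02 ± 0.08).

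Matrix genes were mostly lower: 28 of 45 collagens, laminins, integrins and related genes fell and 6 rose, with a median log2 change of -0.62. Lamb2 was at 193, 200.2 and 229 CPM in PP and 127, 90.9 and 115 CPM in DP (-0.90 ± 0.12); laminins surround radial glia, and the matrix gene tenascin C fell too. Itgb5 was measured at 13.8, 14.2 and 10.6 CPM in PP and 3.56, 3.16 and 2.098 CPM in DP (-2.13 ± 0.24); integrins bind this matrix, and Itga6 fell as well (-0.74). The 4 largest falls were in the collagens Col3a1, Col6a1, Col1a2 and Col1a1, of which Col6a1 is not a fibrillar collagen. Col3a1 stood at 4.40, 8.93 and 44.1 CPM in PP and 2.17, 0.0775 and 0.410 CPM in DP (-4.48 ± 0.99). Col1a2 had 3.95, 6.68 and 22.7 CPM in PP and 1.58, 0.310 and 0.579 CPM in DP (-3.79 ± 0.68), and Col1a1 fell (log2 -3.23). These 3 fibrillar collagens were highest in PP library L393, in which the meningeal markers, a list that holds them, were also highest at 126 CPM. The basement membrane collagen Col4a1 was highest there too (24.7, 43.2 and 97.3 CPM in PP and 16.1, 12.8 and 18.5 CPM in DP), and within each group its libraries stood in the order of the endothelial marker sums, at 13.0, 18.1 and 37.6 CPM in PP and 13.0, 12.1 and 14.4 CPM in DP. Their part in the falls was not tested. Members that rose included the integrin Itga4 (5.45, 2.69 and 4.13 CPM in PP and 19.1, 27.1 and 27.01 CPM in DP, 2.59 ± 0.25) and the laminin Lamb1 (7.95, 11.1 and 18.6 CPM in PP and 35.9, 43.3 and 39.9 CPM in DP, 1.65), whose Neuron level was 96.9 ± 3.82 CPM. The proteoglycan gene Vcan rose by 0.51.

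Microtubule genes of neurons were higher more often than lower. Of 33 microtubule genes 20 rose and 3 fell, or 5 without L223 (median log2 0.34). Dcx was at 88.4, 42.6 and 28.3 CPM in PP and 609, 885 and 747 CPM in DP (3.82 ± 0.34); doublecortin stabilises microtubules in migrating neurons. Kif26b was measured at 40.9, 26.2 and 21.04 CPM in PP and 287, 383 and 286 CPM in DP (3.45 ± 0.32) with 28.1 ± 13.4 CPM in Neuron, so this kinesin was highest in DP. Mapt stood at 13.4, 9.97 and 6.62 CPM in PP and 20.8, 27.1 and 23.8 CPM in DP (1.27 ± 0.20); it encodes tau, and its Neuron level was 1166 ± 96.7 CPM. Stmn2 had 4.81, 2.157 and 1.60 CPM in PP and 6.05, 10.8 and 8.59 CPM in DP (1.62 ± 0.31); it encodes a microtubule regulator of growth cones, and its Neuron level was 495 ± 26.8 CPM. Both rose in DP and lay far higher in neurons. A different order held for a few neuronal genes. Tubb2a was at 85.6, 103 and 90.2 CPM in PP and 45.01, 46.0 and 49.0 CPM in DP (-0.99 ± 0.09), with 391 ± 38.2 CPM in Neuron. Kif26a was measured at 268, 235 and 265 CPM in PP and 128, 97.6 and 121 CPM in DP (-1.15 ± 0.10), with 539.9 ± 8.12 CPM in Neuron. In this tubulin and this kinesin DP was the lowest of the 3 groups.

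Migration genes rose in 16 of 27 members and fell in 5 (median log2 0.69). Nrp1 stood at 23.4, 13.2 and 13.4 CPM in PP and 151.5, 184 and 183 CPM in DP (3.38 ± 0.20); Nrp1 and Plxna4 are receptors of semaphorins. Unc5d had 14.2, 11.2 and 6.35 CPM in PP and 76.4, 129 and 81.5 CPM in DP (3.19 ± 0.28); this netrin receptor is known from multipolar cells of the subventricular zone. Rnd2 was at 50.3, 35.4 and 28.9 CPM in PP and 256, 350.5 and 316.3 CPM in DP (3.01 ± 0.19); Rnd2 is an atypical small GTPase and a target of Neurog2. Reelin signalling parted: the receptor Lrp8 rose (268, 233 and 212 CPM in PP and 727, 907 and 876 CPM in DP, 1.82), the receptor Vldlr fell (44.9, 50.00 and 38.1 CPM in PP and 20.6, 23.3 and 21.7 CPM in DP, -1.02 ± 0.10), and the adaptor Dab1 fell (176, 170.2 and 160.8 CPM in PP and 102, 69.3 and 76.2 CPM in DP, -1.03 ± 0.12). In Neuron, Vldlr stood at 134 ± 6.49 CPM and Dab1 at 417 ± 21.7 CPM, so that both were lowest in DP. Filip1, a regulator of filamin, fell (log2 -0.90).

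Fgf signalling genes, which keep radial glia in cycle, were lower in 14 of 25 members and higher in 5 (median log2 -0.65). Fgfr2 was measured at 285, 272 and 269.5 CPM in PP and 129.9, 94.0 and 94.6 CPM in DP (-1.38 ± 0.17), with smaller falls of the receptors Fgfr1 (-0.92) and Fgfr3 (-0.61). Etv5 stood at 114, 126 and 104 CPM in PP and 41.8, 37.3 and 35.8 CPM in DP (-1.58 ± 0.11, adjusted p = 9.14e-07); Etv5 and Etv4 are transcriptional targets of ERK. Spry4 had 4.78, 6.88 and 6.70 CPM in PP and 1.58, 1.88 and 2.22 CPM in DP (-1.70); Sprouty and Spred proteins are feedback inhibitors of the pathway, and Spry2, Spred1 and Spred2 fell (log2 -0.96, -0.67 and -0.79). The ERK phosphatase Dusp4 rose instead (24.5, 17.96 and 16.9 CPM in PP and 116, 144 and 127 CPM in DP, 2.71 ± 0.14), as did the receptor partner Flrt1 (27.01, 20.1 and 19.6 CPM in PP and 128, 165.7 and 165 CPM in DP, 2.79 ± 0.14), and Spry1 went against its relatives (1.10). The Fgf carrier Fgfbp3 fell (75.2, 68.0 and 60.8 CPM in PP and 24.3, 15.6 and 17.6 CPM in DP, -1.83 ± 0.15). Dusp6, the best known feedback phosphatase, did not pass the test (4.13, 5.34 and 10.99 CPM in PP and 6.45, 8.18 and 12.4 CPM in DP).

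Hedgehog reception showed 8 falls and 3 rises among 13 genes (median log2 -0.54). Gas1 was at 296, 303 and 314.6 CPM in PP and 178, 112 and 132 CPM in DP (-1.12 ± 0.14). Cdon was measured at 1302, 1386 and 1483 CPM in PP and 801, 619.7 and 767 CPM in DP (-0.93 ± 0.10); both are coreceptors of the ligand. Gli3 stood at 691, 756 and 675 CPM in PP and 394.5, 303 and 300.2 CPM in DP (-1.09 ± 0.12); Gli3 acts as a repressor in the dorsal cortex, and Gli1, a target of the pathway, fell too (-1.05). The inhibitors Sufu and Gpr161 rose by 0.31 and 0.30, and the receptor Ptch1 fell (log2 -0.76).

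BMP and TGF beta genes went both ways, 9 rising and 7 falling of 34 (median log2 -0.11), shares near those over all genes. Without DP library L356, 5 rises were called. Nog had 44.7, 46.2 and 43.2 CPM in PP and 21.9, 11.9 and 12.2 CPM in DP (-1.55 ± 0.20); Nog and Chrd are secreted BMP antagonists, and Nog fell while Chrd rose (7.60, 8.07 and 10.3 CPM in PP and 12.6, 13.1 and 16.3 CPM in DP, 0.69). The receptor Bmpr1b fell (43.2, 39.3 and 37.99 CPM in PP and 20.9, 16.3 and 19.6 CPM in DP, -1.09), and the signal carrier Smad3 fell (-0.97). The ligand Gdf11 and the TGF beta carrier Ltbp1 rose by 0.38 and 0.59. In the Hippo pathway 7 of 24 rose and 10 fell (median log2 0.06). Yap1 was at 205, 234 and 215 CPM in PP and 147, 112 and 119 CPM in DP (-0.79 ± 0.18); Yap1 and Wwtr1, which fell too (-0.80), are the growth-promoting cofactors that the pathway restrains. Cyr61 was measured at 179.5, 218 and 234 CPM in PP and 111, 69.4 and 81.7 CPM in DP (-1.27 ± 0.17). Ctgf stood at 11.8, 20.3 and 19.4 CPM in PP and 7.25, 6.26 and 5.19 CPM in DP (-1.47 ± 0.21); both genes are targets of these cofactors. Amot, which holds them outside the nucleus, rose (35.8, 34.1 and 28.8 CPM in PP and 74.2, 77.9 and 72.1 CPM in DP, 1.19 ± 0.12), and their DNA-binding partner Tead2 did not pass the test (0.12). The kinase Stk3 and the scaffold Frmd6 rose by 0.55 and 0.46, and the junction protein Jub fell (log2 -1.32).

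Among LIF and STAT3 signalling genes, Il6st and Cntfr fell while Stat3 rose. Stat3 had 28.8, 29.8 and 24.7 CPM in PP and 80.5, 86.6 and 76.0 CPM in DP (1.55 ± 0.10, adjusted p = 5.02e-07), with 27.1 ± 2.56 CPM in Neuron. The receptor subunits Il6st and Cntfr fell (log2 -0.51 and -0.70), and the feedback inhibitor Socs3 rose (16.3, 13.7 and 19.9 CPM in PP and 29.2, 28.8 and 32.5 CPM in DP, 0.86), as did Socs2 (0.70). The outer radial glia gene Ptprz1 fell (838, 838 and 676 CPM in PP and 311.5, 244 and 207 CPM in DP, -1.62 ± 0.15) to below its Neuron level of 518 ± 55.5 CPM. Pdgfrb, in the list for outer radial glia and also a pericyte marker, fell (log2 -1.54). In all, 4 of 18 rose and 8 fell (median log2 -0.26). Of 22 thyroid hormone and retinoid genes 4 rose and 7 fell (median log2 -0.09). Thrb was at 1.56, 0.982 and 0.555 CPM in PP and 9.44, 14.3 and 11.3 CPM in DP (3.53 ± 0.32), with 1.60 ± 0.506 CPM in Neuron; Thrb is a thyroid hormone receptor and was highest in DP. The retinoic acid receptor Rara fell (16.1, 13.2 and 13.9 CPM in PP and 7.70, 4.57 and 5.09 CPM in DP) to below its Neuron level of 27.2 ± 4.55 CPM. Among orphan nuclear receptors, Nr2f2 rose by 1.43 and Nr2e1, the progenitor factor Tlx, fell (log2 -1.12).

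In 4 metabolic lists falls outnumbered rises. Cholesterol synthesis genes fell in 16 of 22 members and rose in 1 (median log2 -0.28). Idi1 was measured at 13.8, 12.9 and 12.4 CPM in PP and 9.28, 6.03 and 7.09 CPM in DP (-0.80 ± 0.16); Idi1 makes an isoprenoid building block of the pathway, and Sc4mol, a later enzyme, fell too (log2 -0.70). Fatty acid oxidation genes fell in 13 of 25 and rose in 1 (median log2 -0.32), or in 2 without Neuron library L224 or with the replicate block. Cpt1a stood at 87.8, 91.2 and 82.1 CPM in PP and 58.1, 35.8 and 33.9 CPM in DP (-1.03 ± 0.19); Cpt1a carries fatty acids into mitochondria, and the thiolase Acaa2 fell (log2 -1.64). The dehydrogenase Acadl and the thioesterase Acot1 fell (log2 -1.16 and -1.34), and the dehydrogenase Acadvl rose by 0.35. Serine, glycine and folate genes fell in 12 of 21 and rose in 3 (median log2 -0.46). Phgdh had 117, 105 and 93.5 CPM in PP and 62.6, 36.1 and 36.8 CPM in DP (-1.22 ± 0.19); it is the first enzyme of serine synthesis, and the next enzymes Psat1 and Psph fell (log2 -0.99 and -0.97). Aldh1l1 was at 49.3, 40.9 and 25.9 CPM in PP and 6.54, 6.28 and 2.24 CPM in DP (-2.94 ± 0.35); this folate enzyme is a marker of astrocytes, while its mitochondrial relative Aldh1l2 rose (9.85, 9.95 and 8.61 CPM in PP and 17.5, 19.6 and 17.3 CPM in DP). The glycine cleavage enzyme Amt rose by 0.55. Glutathione and antioxidant genes fell in 16 of 28 and rose in 1 (median log2 -0.31), and 10 falls were called without DP library L356 or L394. The rises numbered 0 without L393, L356 or L357, 2 without L222, L394, L224 or L395, and 3 with the replicate block, limma or no filter on low counts. Gpx1 was measured at 224.5, 141 and 144 CPM in PP and 63.9, 66.1 and 51.95 CPM in DP (-1.49 ± 0.16); this peroxidase was highest in PP library L222, in which red blood cell transcripts were also highest, and their part was not tested. The reductase Gsr and the peroxidase Prdx6 fell (log2 -0.75 and -0.57).

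Histone deacetylase, methyltransferase and demethylase genes rose in 19 of 33 members and fell in 1, with a median log2 change of 0.25. Kdm1a stood at 169, 158 and 144 CPM in PP and 307, 358 and 346 CPM in DP (1.11 ± 0.08); this histone demethylase works with the Rcor corepressors named above. Hdac5 had 96.6, 95.1 and 97.1 CPM in PP and 167.6, 209 and 196 CPM in DP (0.99 ± 0.08); it encodes a deacetylase. Prdm8 was at 5.77, 2.58 and 2.03 CPM in PP and 41.3, 63.7 and 50.1 CPM in DP (3.94 ± 0.30). Prdm16 was measured at 389, 404 and 407 CPM in PP and 203, 159 and 155.7 CPM in DP (-1.21 ± 0.12) and was the sole member to fall, of 2 without L222, without L223 or with the replicate block. Prdm8 acts in upper-layer neurons and Prdm16 in radial glia. Polycomb genes split, 11 rising and 8 falling of 30 (median log2 0.14). The methyltransferase gene Ezh2 rose (0.51 ± 0.06), as did its cofactor gene Jarid2 (0.84), the cofactor Phf19 fell (-1.10), and the demethylase Kdm6b, which removes the mark that Ezh2 sets, rose (0.79). Of the further members the cofactor Mtf2 rose by 0.73 and Pcgf5, of the other Polycomb complex, fell (log2 -0.95). Of 19 DNA methylation genes 7 rose and 4 fell (median log2 0.11). Dnmt3a stood at 381, 392 and 393.1 CPM in PP and 265, 213 and 223.5 CPM in DP (-0.73 ± 0.08); its enzyme sets new methylation, and Uhrf1, which keeps it through replication, fell too (-0.68). Tet2, which oxidises methylated cytosine, rose (111, 109 and 104 CPM in PP and 152.5, 179.6 and 175 CPM in DP, 0.65 ± 0.08). The methyl-CpG binders Zbtb38 and Zbtb4 parted, at 1.88 and -0.35, and 2 falls were called without L393.

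Genes of RNA binding, cell death and imprinting went both ways. RNA-binding and decay genes rose in 7 of 29 and fell in 6 (median log2 0.06), shares near those over all genes, and with the replicate block 11 rose. Qk had 654, 735 and 628 CPM in PP and 388, 343 and 316.3 CPM in DP (-0.95 ± 0.09); Qk is a splicing regulator, and Msi1, which sustains progenitors, fell by a smaller step (-0.41). The mRNA decay factors Zfp36l1 and Zfp36l2 fell (log2 -0.82 and -0.56), and Cirbp, Khdrbs3 and Hnrnpa1 rose by 0.47, 0.33 and 0.31. Among 36 apoptosis and p53 genes 13 rose and 7 fell (median log2 0.06). Bmf was at 11.6, 8.67 and 8.10 CPM in PP and 41.5, 52.1 and 47.0 CPM in DP (2.32 ± 0.14); Bmf promotes mitochondrial apoptosis. Trp53inp1, a p53-induced gene, stood at 31.4 to 43.2 CPM in PP and at 132 CPM in the lowest DP library (2.21 ± 0.17), while the survival gene Bcl2l1 also rose (0.50) and Bcl2 fell (-0.31). The p53 relative Trp73, which is also a Cajal-Retzius marker, rose by 4.23, and the pore protein Bak1 and the caspase inhibitor Xiap fell (log2 -0.60 and -0.40). Falls in this list numbered 3 without DP library L356 and 4 without PP library L393. Imprinted genes rose in 11 of 30 and fell in 10, with a median log2 change of 0. Mest was measured at 295, 253 and 209 CPM in PP and 86.5, 79.6 and 75.4 CPM in DP (-1.65 ± 0.12); Mest and Peg10, which fell too (-1.51), are expressed from the paternal copy. Igf2 stood at 7.49, 14.3 and 28.9 CPM in PP and 3.67, 1.86 and 1.495 CPM in DP (-2.86 ± 0.45); this growth factor gene stands in the meningeal list, was highest in PP library L393, and the part of meningeal RNA was not tested. Meg3 had 50.9, 34.7 and 52.6 CPM in PP and 112, 117 and 152.3 CPM in DP (1.46 ± 0.16), a maternally expressed non-coding RNA whose Neuron level was 754 ± 54.7 CPM. Rian, from the same cluster, rose by 1.55, and H19, the neighbour of Igf2, fell (log2 -1.14).

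Immediate early and heat shock genes rose in 8 of 29 and fell in 6 (median log2 0.06), shares near those over all genes. Jun was at 625, 759.7 and 816 CPM in PP and 383, 299.7 and 337 CPM in DP (-1.11 ± 0.12). Fos was measured at 24.9, 22.7 and 19.5 CPM in PP and 68.5, 49.1 and 36.6 CPM in DP (1.203 ± 0.18). Jun fell and Fos rose; they are partners in the AP-1 factor, and both also respond to tissue dissociation. Ier5 and Fosl2 rose by 1.18 and 0.68, and Klf6 and Arc fell (log2 -0.52 and -0.56). Of 49 cytosolic ribosomal protein genes 0 rose and 6 fell in edgeR's test, and 42 of 43 not called had intervals within 1.5-fold. At an unadjusted p under 0.05 0 rose and 8 fell, and 0 rose and 7 fell by either DESeq2 or limma. The falls included Rpl10a (-0.48) and Rps2 (-0.37), and 3 falls were called without PP library L222.

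**Figure D5:**
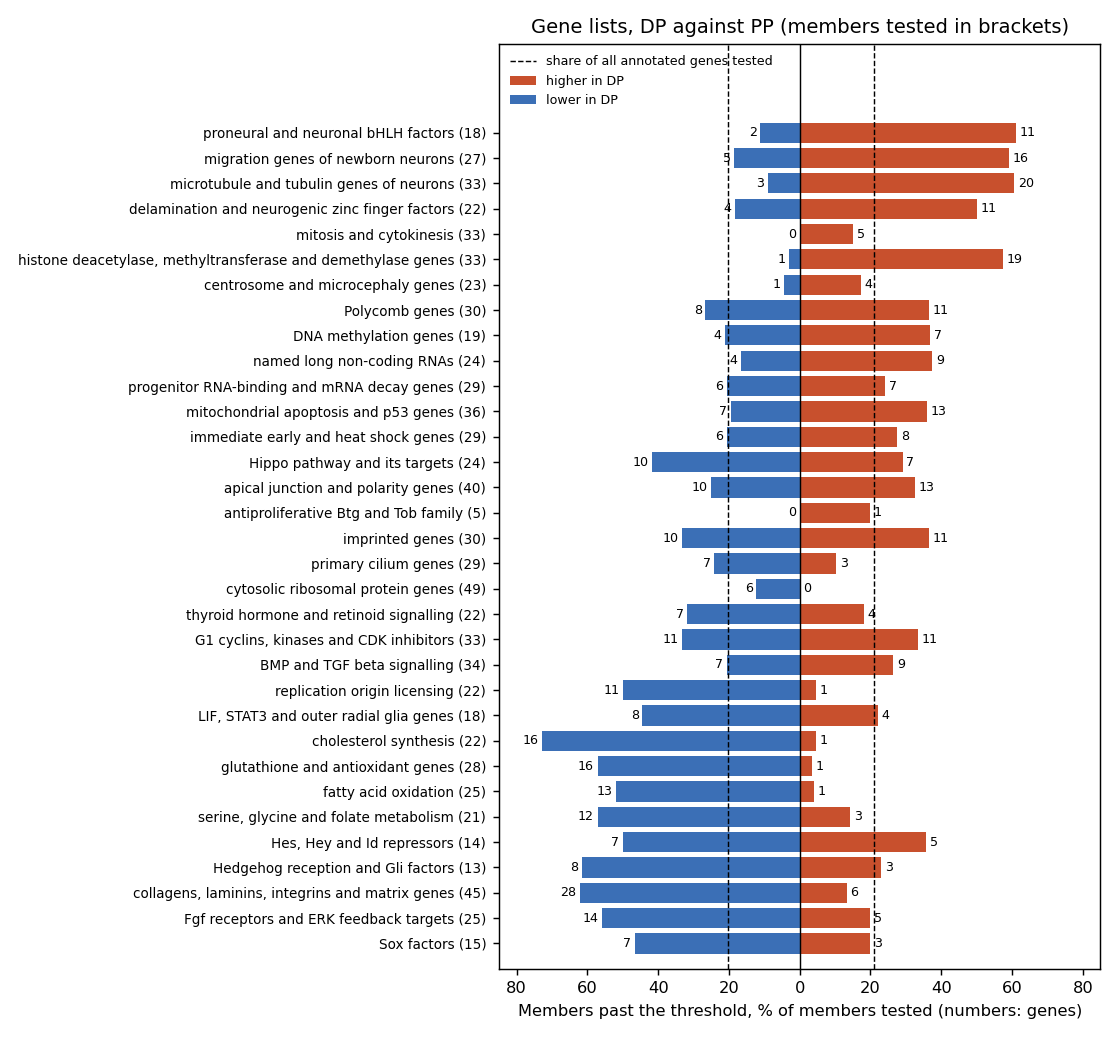
Members past the threshold in each of 33 gene lists as a percentage of the members tested, to the right for higher and to the left for lower in DP, with gene numbers at the bars, ordered by median log2 change. Dashed lines give the shares over all annotated genes, 21.1% higher and 20.2% lower.

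Long non-coding RNAs were lower more often than higher among the annotated classes. Of 859 lincRNAs 12.9% rose and 25.8% fell, and of 452 antisense RNAs 39 rose and 95 fell. Among 24 known ones 9 rose and 4 fell (median log2 0.09), or 7 fell with the replicate block. Miat stood at 1161, 922 and 1042 CPM in PP and 3342, 3573 and 4596 CPM in DP (1.88 ± 0.13); Miat RNA lies in nuclear bodies and was first described in neural precursors as Gomafu. Rmst had 3.84, 5.83 and 8.69 CPM in PP and 30.8, 34.04 and 41.3 CPM in DP (2.52 ± 0.23), with 6.83 ± 0.638 CPM in Neuron; Rmst binds Sox2 and promotes neurogenesis. Sox2ot was at 82.7, 88.7 and 86.5 CPM in PP and 31.7, 23.9 and 23.3 CPM in DP (-1.71 ± 0.11), whose gene overlaps that of Sox2. The non-coding 2610307P16Rik rose and the host RNA Snhg3 fell (log2 -0.61). The 3 largest rises and falls among lincRNA and antisense genes of at least 2 CPM each had as their nearest protein-coding gene one called in the same direction. A530058N18Rik, at chr2:113839338-113858028 (mm9), rose by 5.57, from at most 0.0854 CPM in PP to 1.48 to 2.79 CPM in DP, and overlaps the start of the gap junction gene Gjd2, which rose by 4.86. Gm17325, at chr2:79294142-79301264, rose by 4.46 and overlaps Cerkl, which rose by 3.84, and Neurod1, at chr2:79292678-79296908. A730020E08Rik rose by 4.07 and overlaps Fam190a, which rose by 3.67. Gm13425, at chr2:31493690-31496109, fell (log2 -3.58) and overlaps Prdm12, which fell by 3.31. C030005K06Rik fell (log2 -2.88 and) overlaps Tnfaip8, which fell by 0.52, and Gm20515 fell (log2 -2.72) and lies 214908 bases from Sox2. No source used here says if reads were assigned by strand, and those of overlapping pairs cannot be told apart.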

How the data were processed

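Poly-A RNA of 9 libraries, 3 each of PP, DP and Neuron, had been sequenced from random-primed cDNA in 2 runs, single-read and paired-end, so the 18 samples of the series are 9 libraries. The authors deposited counts per gene and exonic length per gene, per the file headers, for 37620 genes of Ensembl release 67 and 630 unannotated transcripts. Per the submitters' processing notes, the build was mm9 and the tools, named without their roles, included featureCounts 1.4.4, TopHat2 2.0.10, DESeq2 1.4.5 and Cufflinks 2.1.1. The deposited comparison table holds, per the file headers, normalised signal, a log2 fold change, its error and test score, and p-values of the authors; 163380 of 163386 of its normalised values equal the summed counts over a size factor within 0.06. These served only as a check.

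Here the counts of both runs were added per library and tested with edgeR 4.0.16 (R 4.3.3): TMM scaling, filterByExpr, quasi-likelihood test over all 9 libraries, contrast DP minus PP, Benjamini-Hochberg adjustment over 18627 features, threshold 0.05. The fit was also run on simulated counts. These had no difference between Neuron and PP and no library sets, so that run gives no error rate for these data. CPM are edgeR's, on the TMM scale. The libraries held 34337209 to 55935128 counts, so counting error was small for all but low genes; within groups, libraries differed by more than sampling noise, so none was counted as a duplicate. An exact permutation test of 3 against 3 cannot go below p = 0.1. Alternatives were other scalings and filters, DESeq2 1.42.0, limma voom 3.58.1, each run alone, PP and DP alone, leaving out libraries and, chosen after seeing the data, the set of adjacent library numbers in the column names as a replicate block. Deviations from the group mean in PP and DP libraries of the same set correlated across 18143 genes (r = 0.196, 0.484 and 0.515; -0.46 to 0.079 between sets), so the sets were taken to pair the libraries.

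The members, 33 gene lists and 12 marker lists were chosen with earlier results of these data known. Genes were named by rule: the 12 largest changes each way without overlap and with at least 100 CPM (red blood cell genes left out), the 3 largest each way per list with at least 10 CPM, and the 3 largest each way among non-coding RNAs and unannotated transcripts with at least 2 CPM. Further list members were named for their role after their values were seen. Promoters were RefSeq's (GRCm38.p6). The deposited comparisons with neurons were not used here, and some genes that the rule names are not reported here.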

Additional observations from a re-analysis of the deposited data

How the results depend on the processing

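The check of 20 alternative settings covered the 198 genes named by rule. Of these, 184 kept their direction and their side of the threshold in each setting that gave them an adjusted p. Sox8 had no adjusted p with DESeq2. None of the 198 changed sign, and 14 lost a call in at least 1 setting. They included Hey2, Rcor3, Dbf4, Mcm3, Hmmr, Aurka, Arl13b, Gpr161, Gdf11, Zbtb4, Cirbp, Arc and Rps2. With a library left out, 3245 to 4062 annotated genes were called higher and 2756 to 3724 lower, 1221 to 1380 and 924 to 1412 by at least 2-fold. For unannotated transcripts these ranges were 120 to 144 higher and 73 to 91 lower; a filter at 1 CPM in 3 libraries left 77 and 52, and the single-read run alone 79 and 51, against 133 and 86. Of 7495 annotated genes called, between 5865 (without DP library L356) and 7488 (TMM without red blood cell genes) were called in the same direction in each setting, and 7215 in the authors' deposited table. No label ties the replicate numbers to the columns, so the paired fit used the sets of adjacent library numbers. With this set as a replicate block, chosen after seeing the data, 4655 annotated genes were higher and 4635 lower. All 198 genes named by rule kept their calls under it, and the other calls it changed among list genes were gains. Apart from Btg2, Eomes, Neurog2 and Tubb3, the rule took only genes past the threshold and without overlap, which favours calls that hold. Members named for their role, such as Hes5 and Ccnd2, are not among the 198. With 3 pools per group the test without the block measures the spread between pools of a group and ignores the pairing by library set. For low genes, such as the snail factors at under 1 CPM, depth limits what could be seen.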

Other observations

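The deposited tables also hold unannotated transcripts. Of 484 tested, 133 were higher in DP (27.5%) and 86 lower (17.8%). The largest rises and falls of at least 2 CPM overlapped no protein-coding gene, and distances are to the nearest such gene. XLOC_009658 was measured at 0.376, 0.235 and 0.123 CPM in PP and 2.83, 5.87 and 6.37 CPM in DP (4.40 ± 0.41), on chromosome 12 from 27562391 to 27574453 (mm9). It lay 251214 bases from Gm9866, whose log2 change of 1.94 did not pass the test. XLOC_034392 stood at 12.2, 8.93 and 12.7 CPM in PP and 2.12, 1.86 and 2.22 CPM in DP (-2.45 ± 0.19), on chromosome 4 and 11105 bases from Prdm16, which fell by 1.21 on the log2 scale. XLOC_005186 (4.90) and XLOC_019651 (4.38) lay 28888 and 14128 bases from Cradd and Bdh1, which rose, and XLOC_016574 (-1.92) lay 82692 bases from Sema5a, which fell. XLOC_001219 (-1.799) lay 21917 bases from Acbd6, which did not pass the test.

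Neuron levels of the genes that moved at least 2-fold were mostly further in the same direction. The Neuron mean lay above DP for 906 of 1284 genes that rose and below DP for 378. Of 1132 genes that fell, it lay below DP for 801, above DP for 331 and above PP for 128. The DP libraries stand on both sides of these counts, which are therefore given without a test.

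Markers of further cell types were also measured. Choroid plexus and cortical hem markers rose in 9 of 11 tested and summed to 31.4 to 74.6 CPM in PP and 119.8 to 162 CPM in DP. Cajal-Retzius markers rose in 8 of 10 and fell in 1. Ventral progenitor and interneuron markers rose in 5 of 16 tested and fell in 2, with sums of 208.8 to 222.2 CPM in PP and 322, 216 and 150.3 CPM in DP; 2 rises were called without L355 or L223, 3 without L393 or L356 and 8 without L222.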
